A study of Mus musculus with 6 samples.

Results

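Transcription factors that set and adjust the identity of macrophages were followed in tumour-associated macrophages of mouse liver tumours. The 32 genes were taken by name from the 55291 gene symbols of the deposited table and all 32 were found there. They were read in 6 groups by role: 8 factors of the Kupffer cell lineage, 4 MiT/TFE factors, 4 nuclear receptors, 4 monocyte factors, 5 myeloid lineage factors and 7 signal-dependent factors. The series holds 3 libraries of macrophages positive for the surface receptor TREM2 (TREM2+) and 3 of macrophages negative for it (TREM2-), all of polyadenylated RNA from hepatocellular carcinoma tissue. The sources used here give no strain, genotype or age of the mice, and neither the origin of the tumours, the sorting gate nor the number of animals behind a library. Nothing states that each replicate is another animal, and the p-values reflect only how far these libraries lay apart, which can be technical. Values per library are listed in the order of replicates 1, 2 and 3.

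Values are transcripts per 1000000 (TPM), here the deposited length-scaled signal rescaled so that each library sums to 1000000. Whole reads recovered from that signal came to between 11493465 and 19929829 per library. Composition varied among libraries of the same group. The repeat transcripts of Gm10800 and its relatives made up 0.427% to 24.6% of the TPM, and mitochondrially encoded transcripts 2.42% to 12.3%. Trem2, which checks the labels and is no finding, stood at 39.6, 40.8 and 30.7 TPM in TREM2+ and at 16.9, 20.5 and 21.1 TPM in TREM2-. Its log2 fold change was 0.89 ± 0.22 (SE) with an adjusted p of 0.0855 in limma, and an exact two-sided permutation test gave p = 0.1, the smallest that 3 against 3 libraries allow. The macrophage marker Adgre1 was present in all 6 libraries, at 216 to 242 TPM in TREM2+ and 149 to 333 TPM in TREM2- libraries. Transcripts usually read as those of other cells were present as well. The summed neutrophil markers reached 16338 to 20078 TPM in TREM2+ and 19492 to 22506 TPM in TREM2- libraries. The most abundant of them differed in direction: Retnlg averaged 5089 against 10476 TPM, and S100a9 7178 against 4206 TPM. By limma's adjusted p 0 of the 9 neutrophil markers passed 0.05, and 6 had a log2 fold change above 0. Their median was 0.33, against -0.09 over all genes tested. The summed T or NK cell markers reached 965 to 1168 TPM in TREM2+ and 1562 to 3712 TPM in TREM2- libraries. In bulk RNA, fewer cells of a type and less RNA per cell cannot be told apart.

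A macrophage is built on a few lineage factors, above all PU.1 and the C/EBP proteins, which open the enhancers that later factors use. In the liver, signals from sinusoidal endothelial and stellate cells act on incoming monocytes: Notch ligands act through RBPJ, BMP and TGF beta ligands act through SMAD4 and the ID proteins, and together with liver X receptor alpha (LXR alpha) they install the Kupffer cell programme. SPIC is a relative of PU.1 that red pulp and other iron-recycling macrophages use, MiT/TFE proteins drive lysosome genes, and KLF and NR4A proteins act in monocytes.

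The stretches just before the start sites of Spic, Nr1h3 and Nr1h2 are shown because Spic and Nr1h3 were higher in TREM2+ libraries while Nr1h2, the closest relative of Nr1h3, was not. They come from RefSeq (build GRCm38.p6) and are written on the minus strand, on which all 3 genes lie, without any base of an annotated exon of the gene. The first lies at chr10:88683024-88683273 in an intron of Spic, the second at chr2:91195152-91195366 within Nr1h3 but outside its exons, and the third at chr7:44553966-44554215 outside any annotated gene.
Spic: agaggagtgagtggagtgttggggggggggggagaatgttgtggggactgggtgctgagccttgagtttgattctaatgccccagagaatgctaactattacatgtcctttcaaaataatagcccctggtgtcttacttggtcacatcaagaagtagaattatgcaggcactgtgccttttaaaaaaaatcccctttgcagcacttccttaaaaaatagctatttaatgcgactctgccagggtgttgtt
Nr1h3: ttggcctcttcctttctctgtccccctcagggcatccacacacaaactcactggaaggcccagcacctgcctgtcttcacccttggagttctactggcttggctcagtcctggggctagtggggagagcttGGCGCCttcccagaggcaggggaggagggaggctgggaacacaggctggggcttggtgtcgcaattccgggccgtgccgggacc
Nr1h2: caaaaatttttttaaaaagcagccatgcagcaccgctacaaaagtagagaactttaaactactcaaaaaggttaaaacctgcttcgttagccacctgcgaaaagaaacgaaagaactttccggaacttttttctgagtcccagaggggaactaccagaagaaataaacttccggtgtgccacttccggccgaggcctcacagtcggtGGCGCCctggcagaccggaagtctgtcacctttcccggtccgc
Capitals mark GGCGCC, a GC-rich element bound by SMAD proteins. A search of both strands covered that element and 8 others. For lineage factors these were the PU.1 core GAGGAA and the C/EBP motif TTGCNNAA. The E-box CACGTG was searched for MiT/TFE proteins, and the motif GTGGGAA for the Notch effector RBPJ. The half-site TGCTGAC was searched for MAF proteins, and TGACNNNGC for the haem and stress factors NRF2 and BACH1. The remaining searches were GGGCGG for Sp and KLF proteins and the DR4 element for LXR. Matches of different motifs may overlap. Windows of the same gene may overlap too, so that a site can count more than once, as did GGCGCC in Nr1h3 and GAGGAA in Zeb2. In windows of 250 bases before a start site, GGCGCC occurred in 9.59% of all 32851 windows and in 9 of the 40 windows of the factor genes. The Spic window held none of the 9 motifs. It was also poor in CpG, with 1 CpG and 44.8% G and C, against medians of 6 CpG and 52.4% over all windows. GGGCGG occurred in 32.7% of all windows and in 22 of the 40, among them those of Cebpb, Klf2, Klf4 and Id3. The windows of these named genes were rich in G and C, at 62.8% (Id3) to 81.6% (Cebpb), with 18 to 41 CpG. No motif share was adjusted for base composition. E-box CACGTG occurred in 6.02% of all windows and in those of Bhlhe41, Klf4 and Runx1, and in none of the 9 windows of the MiT/TFE genes. Windows were matched by symbol for 25 of the 32 genes, the others being Bhlhe40, Hes1, Id1, Maf, Myc, Smad4 and Spi1. The shares for the other motifs, in all windows and in those of the factor genes, were 23.3% and 10 of 40 for GAGGAA, 9.56% and 3 for TTGCNNAA, 5.42% and 1 for GTGGGAA, 3.81% and 2 for TGCTGAC, 10.2% and 3 for TGACNNNGC, and 0.0152% and 0 for DR4. A match describes the letters only.

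Of the 32 genes 3 rose in TREM2+ macrophages: Spic, the lipid-sensing receptor gene Nr1h3 (LXR alpha) and the large MAF protein gene Maf. None fell. The lineage factors Spi1 and Runx1, and the signal-dependent factors Irf5, Stat3 and Stat6, had log2 fold changes between -0.20 and -0.04 with overlapping groups. Tested were the 31 genes with at least 1 TPM in at least 3 libraries, with limma across all 13788 such genes on log2(TPM + 1) and a threshold of 0.05 on the adjusted p, so that fold changes of low genes are understated. Of all genes tested 2.05% were called higher and 0.37% lower. By unadjusted p, 8 factor genes lay under 0.05 on the higher side and 0 on the lower side, where all genes gave 7.45% and 5.34%. The groups did not overlap in 7 factor genes, each with TREM2+ above (9.07% of all genes), and in 0 with TREM2+ below (7.62%). The median log2 fold change was 0.20 over the 31 factor genes and -0.09 over all genes tested. The count of 3 went to 0 without TREM2- replicate 3 and to 1 without TREM2+ replicate 1 (Spic) or TREM2+ replicate 3 (Maf). Without both libraries numbered 3 it was 0, as it was among all genes. On recovered reads limma's voom gave 3 higher and 0 lower (3.32% and 1.28% of all genes), and limma with library weights gave 11 higher and 0 lower (7.08% and 2.82%). The split over all genes, 282 higher and 51 lower, became 206 and 92 with the deposited values and 284 and 101 without the Gm10800 repeats.

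**Figure D1:**
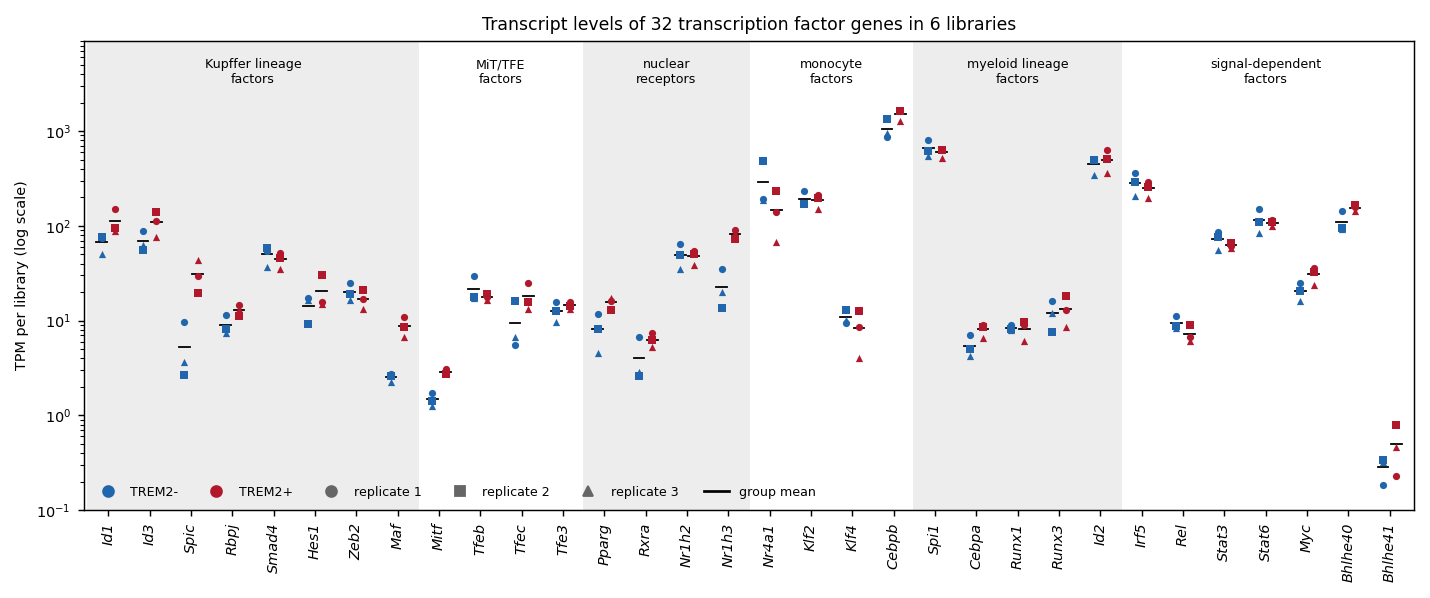
TPM of the 32 factor genes on a log axis, by role. Blue symbols are the 3 TREM2- and red symbols the 3 TREM2+ libraries, symbol shapes are replicate numbers and bars are group means. Levels span from Bhlhe41, under 1 TPM in every library, to Cebpb, the highest in every library.

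**Figure D2:**
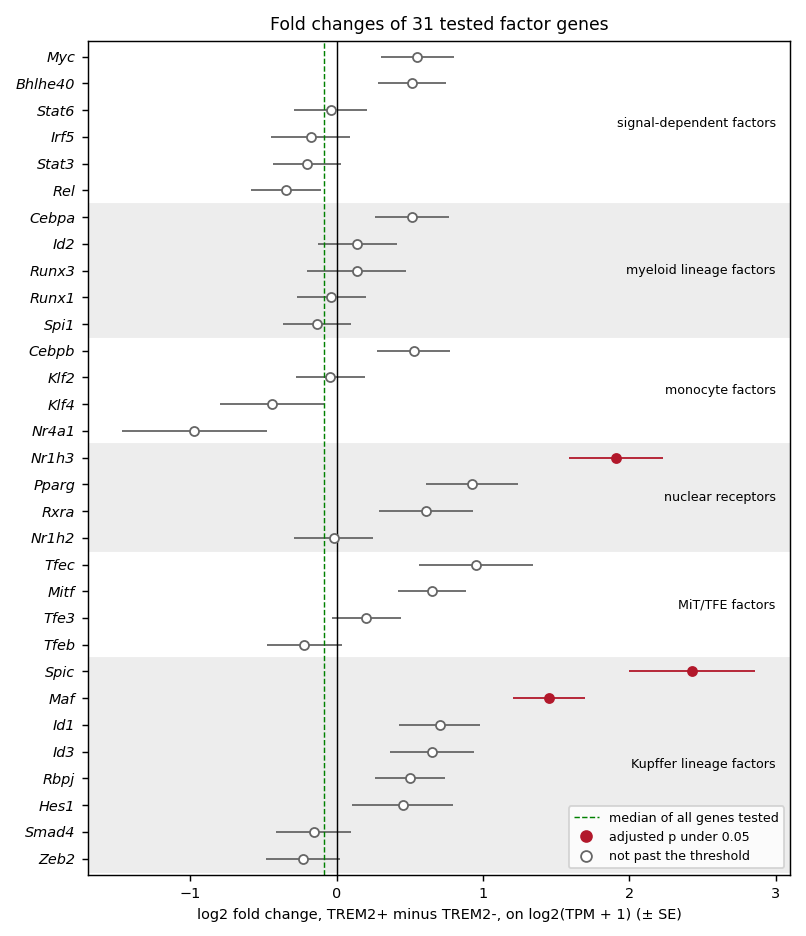
Log2 fold change (TREM2+ minus TREM2-, on log2(TPM + 1)) with its standard error for the 31 tested genes, by role. Filled red points are the 3 genes past the adjusted threshold (Spic at 2.43, Nr1h3 at 1.91 and Maf at 1.45), and the dashed line is the median of all genes tested at -0.09.

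Among the Kupffer lineage factors, Spic (ENSMUSG00000004359.16, chromosome 10, 88674772 to 88685015, minus strand, build mm10) was the most raised of the 32 genes. It reached 29.5, 19.5 and 44.1 TPM in TREM2+ against 9.64, 2.65 and 3.64 TPM in TREM2-. The lowest TREM2+ library stood above the highest TREM2- library, and within each group the libraries spread by more than 2-fold. The log2 fold change was 2.43 ± 0.43 (SE), with an adjusted p of 0.0237 in limma, and it exceeded in size that of 99.6% of all genes tested. The TREM2- values rest on 330, 76 and 90 recovered reads. With each library omitted in turn the change ranged from 2.11 to 2.88. The call was lost without TREM2+ replicate 3 (adjusted p = 0.0733) or TREM2- replicate 3 (adjusted p = 0.12).

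Maf, which encodes c-MAF, a factor of resident and anti-inflammatory macrophages, stood at 10.96, 8.66 and 6.77 TPM in TREM2+ and at 2.75, 2.60 and 2.24 TPM in TREM2-. The TREM2- libraries lay close together and the groups were far apart. The log2 fold change was 1.45 ± 0.25, with an adjusted p of 0.0194. The call was lost without TREM2+ replicate 1 (adjusted p = 0.102), TREM2+ replicate 2 (adjusted p = 0.0606) or TREM2- replicate 3 (adjusted p = 0.0901). Maf (ENSMUSG00000055435.6) lies on chromosome 8 from 115682942 to 115707794, minus strand. Its exons overlap the antisense gene Gm15655, and without a stated strand setting their reads cannot be told apart.

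Id1 and Id3, inhibitory partners of helix-loop-helix factors and early targets of BMP signals, did not pass. Id1 was at 150.3, 95.9 and 87.8 TPM in TREM2+ and at 74.6, 75.8 and 50.9 TPM in TREM2-. These groups did not overlap, and the log2 fold change was 0.70 ± 0.28 (adjusted p = 0.314). Id3 was at 112, 141 and 76.4 TPM against 88.3, 55.6 and 62.7 TPM, with TREM2+ replicate 3 below TREM2- replicate 1 and a log2 fold change of 0.65 ± 0.29. The Notch effector Rbpj stood at 13.1 ± 1.65 against 9.04 ± 2.19 TPM (SD, n = 3), and the Notch target Hes1 at 20.4 ± 8.87 against 14.4 ± 4.56 TPM, with the highest value of Hes1 in TREM2+ replicate 2. Smad4, the shared partner of receptor-activated SMADs, and Zeb2, a repressor needed to keep Kupffer cell identity, had log2 fold changes of -0.16 ± 0.26 and -0.23 ± 0.25. In all, 2 of the 8 Kupffer lineage factors passed, 6 had a log2 fold change above 0, and their median was 0.58. Of the 13788 genes tested 2.05% were called higher, 5382 had a log2 fold change above 0, and the median was -0.09.

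Kupffer cell and endothelial cell transcripts moved with the group. Of 11 Kupffer cell markers 9 were higher and 0 lower, and their summed level was 1407 to 2471 TPM in TREM2+ and 381 to 638 TPM in TREM2- libraries. Of 20 endothelial cell markers 17 were higher and 0 lower, with sums of 353 to 497 TPM against 36.6 to 72.6 TPM. Over all genes tested 2.05% were called higher and 0.37% lower. No marker of either list was at 0 in any library. The called factors were therefore also expressed per 100 TPM of the summed Kupffer cell markers, a ratio chosen after the values were seen. That divisor holds Cd5l, also listed below as an LXR target, and Slc40a1, also listed below among the SPIC iron genes. The divisor may thus itself depend on Nr1h3 and Spic. Spic then came to 1.19, 1.38 and 2.60 in TREM2+ and to 1.51, 0.69 and 0.96 in TREM2-. Nr1h3 came to 3.69, 5.20 and 4.95 against 5.44, 3.48 and 5.30, and Maf to 0.44, 0.62 and 0.40 against 0.43, 0.67 and 0.59. On this scale the groups overlapped for all 3 genes. They also overlapped for Tfec and Bhlhe41, and the other 27 factor genes were lower in every TREM2+ than in every TREM2- library, since the divisor itself was higher there. Adgre1, which all macrophages carry and which had a log2 fold change of 0.11 ± 0.30, gave 149 to 333 TPM of the TREM2- sums. Without it the groups still overlapped for Spic and Nr1h3, while Maf was lower at 0.49, 0.74 and 0.46 against 0.904, 1.099 and 1.16. Per 100 TPM of Clec4f, a lectin of Kupffer cells, Spic overlapped, whereas Nr1h3 (17.8, 27.4 and 23.9 against 48.5, 43.4 and 64.4) and Maf (2.14, 3.24 and 1.93 against 3.84, 8.42 and 7.15) were lower. Per 100 TPM of the endothelial cell markers the groups overlapped for Spic and the other 31 factor genes were lower. The part of Kupffer or endothelial cells in the 3 calls was not tested.

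**Figure D3:**
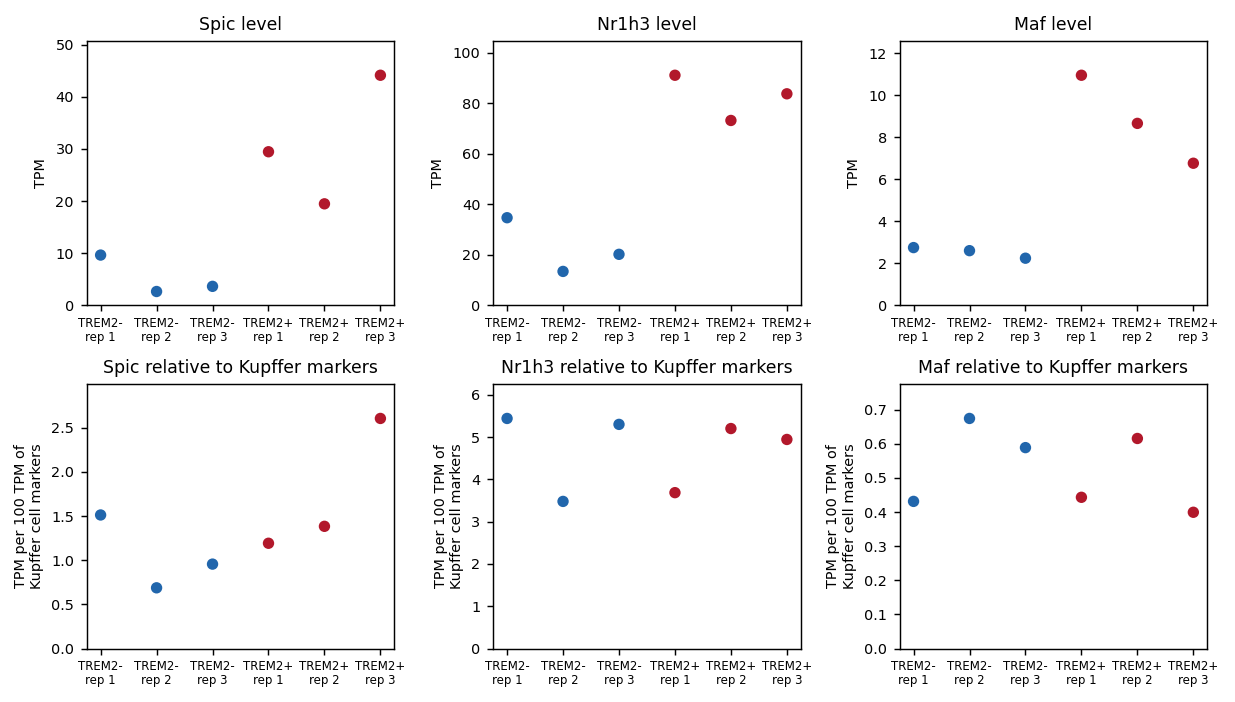
Upper row: TPM of Spic, Nr1h3 and Maf in each library (blue TREM2-, red TREM2+). Lower row: the same genes per 100 TPM of the 11 summed Kupffer cell markers, where the groups overlap for all 3.

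The nuclear receptors include 2 LXR genes. LXR alpha and LXR beta bind oxysterols and turn on genes of cholesterol efflux. Nr1h3 (LXR alpha) reached 91.1, 73.2 and 83.8 TPM in TREM2+ against 34.7, 13.4 and 20.2 TPM in TREM2-. Every TREM2+ library stood above every TREM2- library, among which replicate 1 was highest. The log2 fold change was 1.91 ± 0.32, with an adjusted p of 0.0194. The call was lost without TREM2+ replicate 1 (adjusted p = 0.0501), TREM2+ replicate 3 (adjusted p = 0.0615) or TREM2- replicate 3 (adjusted p = 0.092). Nr1h3 (ENSMUSG00000002108.10) lies on chromosome 2 from 91184061 to 91202834, minus strand. Its exons overlap those of Gm13783 on the same strand.

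Nr1h2 (LXR beta) stood at 54.3, 50.6 and 38.7 TPM in TREM2+ and 64.7, 48.9 and 35.1 TPM in TREM2-, and its log2 fold change was -0.02 ± 0.27, a sign that turned with median-of-ratios and quantile scaling. The order of the pair therefore differed between groups. Nr1h3 exceeded Nr1h2 in every TREM2+ library, with ratios of 1.68, 1.45 and 2.16. It was below Nr1h2 in every TREM2- library, with ratios of 0.537, 0.275 and 0.575. Both levels are per length, so the ratio compares transcripts within a library and does not depend on its scaling.

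Pparg, the lipid-activated receptor PPAR gamma, was at 16.2, 13.02 and 17.4 TPM in TREM2+ and 11.8, 8.13 and 4.58 TPM in TREM2-. The groups did not overlap, but the log2 fold change of 0.92 ± 0.32 did not pass (adjusted p = 0.233). Rxra, the partner that PPAR gamma and both LXRs need to bind DNA, stood at 6.28 ± 1.02 against 4.04 ± 2.26 TPM (SD, n = 3). Its values overlapped, since TREM2- replicate 1 had 6.64 TPM and the other TREM2- libraries 2.62 and 2.86 TPM. Of the 4 nuclear receptors 1 passed, and their median log2 fold change was 0.77. Over all genes tested 2.05% were called higher and the median was -0.09.

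The 4 related MiT/TFE proteins bind the E-boxes of lysosome and autophagy genes. None of them passed. Mitf was the least abundant, at 3.099, 2.74 and 2.79 TPM in TREM2+ and 1.74, 1.43 and 1.25 TPM in TREM2-. Its groups did not overlap, the log2 fold change was 0.65 ± 0.23 (adjusted p = 0.262), and the TREM2- values rest on 96, 66 and 50 reads. Tfec, largely restricted to myeloid cells, was at 25.2, 15.7 and 13.3 TPM against 5.60, 16.2 and 6.70 TPM, a log2 fold change of 0.95 ± 0.39. Its overlap came from TREM2- replicate 2 alone, whose value exceeded those of TREM2+ replicates 2 and 3.

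Tfeb and Tfe3, the broadly expressed members, were at 17.8 ± 1.44 against 21.5 ± 6.84 TPM and at 14.5 ± 1.30 against 12.6 ± 3.05 TPM (SD, n = 3). The 4 genes together came to 61.9, 52.0 and 45.8 TPM in TREM2+ and 52.5, 47.7 and 35.1 TPM in TREM2-, so the summed level overlapped. Mitf made up 5.01% to 6.09% of that sum in TREM2+ and 2.99% to 3.57% in TREM2- libraries, with no overlap. Tfeb made up 28.7% to 37.1% against 36.9% to 56.0%, and Tfec 29.1% to 40.7% against 10.7% to 33.9%, both with overlap. Tfe3 made up between 25.6% and 30.0% in all 6 libraries.

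**Figure D4:**
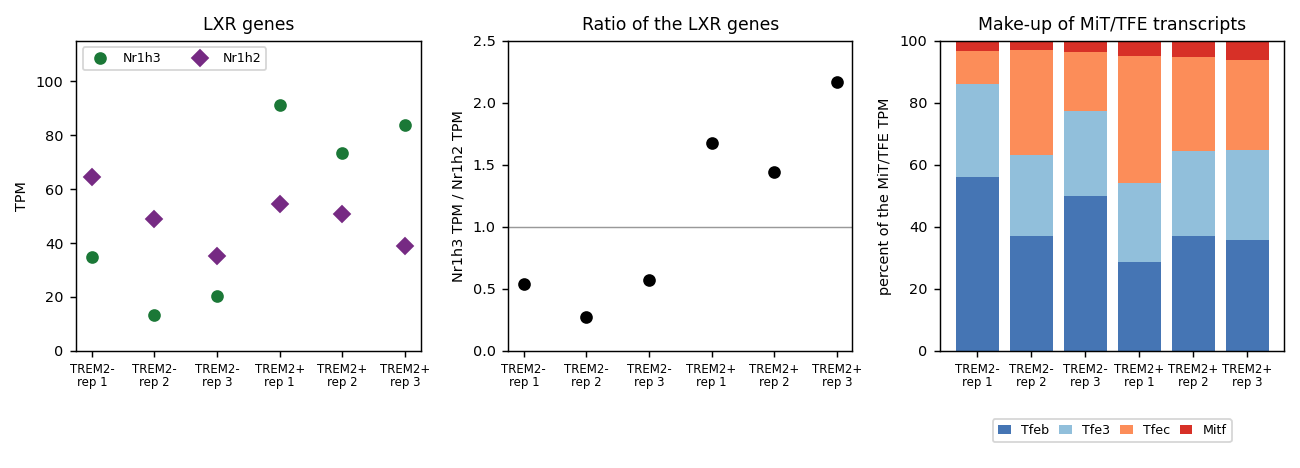
Left: TPM of the LXR genes Nr1h3 and Nr1h2 in each library. Middle: their ratio, which is above 1 in every TREM2+ and below 1 in every TREM2- library. Right: share of each MiT/TFE gene in the summed TPM of the 4.

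Of the 4 monocyte factors none passed, and their median log2 fold change was -0.24. Nr4a1, an orphan nuclear receptor that patrolling monocytes need and that is also induced within minutes of stimulation, was at 142, 235 and 68.3 TPM in TREM2+ and 194, 484 and 186 TPM in TREM2-. The spread within each group was more than 2-fold, and TREM2+ replicate 2 lay above TREM2- replicates 1 and 3. The log2 fold change, the lowest of the 31 tested, was -0.97 ± 0.49 (adjusted p = 0.488). Nr4a2, a relative outside the 32 genes, was lower in all TREM2+ libraries without passing (13.03 ± 4.30 against 21.8 ± 2.45 TPM, SD, n = 3, adjusted p = 0.261).

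Klf4, which monocyte differentiation requires, was at 8.47, 12.7 and 4.04 TPM in TREM2+ and 9.53, 12.8 and 10.2 TPM in TREM2-. The 2 libraries highest in Nr4a1 were the 2 highest in Klf4, namely TREM2- replicate 2 and TREM2+ replicate 2, and TREM2+ replicate 3 was lowest in both. Klf2, a quiescence factor of monocytes and endothelium, was at 187 ± 31.3 against 193 ± 36.2 TPM. Cebpb, which controls emergency myelopoiesis and inflammatory genes, was the most abundant of the 32 genes in every library. It reached 1634, 1622 and 1281 TPM in TREM2+ and 877, 1341 and 966 TPM in TREM2-, a log2 fold change of 0.53 ± 0.25 (adjusted p = 0.438). Of 12 monocyte markers 1, Ly6c2, was lower and 0 were higher, beside 0.37% lower and 2.05% higher over all genes tested. Their median log2 fold change was -0.86, and in 5 of the 12 every TREM2+ library lay below every TREM2- library (7.62% of all genes). By limma's unadjusted p, 5 lay under 0.05 on the lower side (5.34% of all genes). Their summed level overlapped at 3571 to 29945 TPM in TREM2+ and 12773 to 73524 TPM in TREM2- libraries. Chil3 alone gave 1946 to 27674 and 8002 to 69640 TPM of that and was highest in TREM2- replicate 2 and lowest in TREM2+ replicate 3, as was Nr4a1. The part of monocyte content in the Nr4a1 values was not tested.

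Of the 5 myeloid lineage factors none passed and no group stood apart. Spi1, which encodes PU.1, ranked second among the 32 genes in every library, at 628, 638 and 521 TPM in TREM2+ and 812, 620 and 546 TPM in TREM2-. Its log2 fold change was -0.13 ± 0.23. Id2, an inhibitory helix-loop-helix protein, was at 499 ± 133 against 447 ± 86.7 TPM (SD, n = 3), ranking next in every library. Cebpa, the C/EBP factor of granulocyte and monocyte progenitors, was low at 8.07 ± 1.26 against 5.42 ± 1.46 TPM, with a log2 fold change of 0.51 ± 0.25. Runx1 and Runx3, which bind beside PU.1 and C/EBP at myeloid genes, had log2 fold changes of -0.04 ± 0.24 and 0.14 ± 0.34.

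Of the 6 signal-dependent factors tested none passed, and their median log2 fold change was -0.11. Bhlhe40, a repressor that acts in lipid-handling and alveolar macrophages, was at 158, 166 and 144.5 TPM in TREM2+ and 143.9, 95.9 and 93.5 TPM in TREM2-. Its lowest TREM2+ value and highest TREM2- value differed by less than 1 TPM, and the log2 fold change was 0.51 ± 0.23 (adjusted p = 0.414). Its paralogue Bhlhe41 was not tested, since it lay between 0.18 and 0.79 TPM on 11 to 38 reads. Myc, a growth regulator, was at 35.8, 32.4 and 24.0 TPM against 25.1, 20.7 and 16.3 TPM, a log2 fold change of 0.55 ± 0.25. The inflammatory factor Irf5 was at 250.2 ± 48.5 against 286 ± 76.3 TPM (SD, n = 3), and the NF-kB subunit gene Rel at 7.26 ± 1.57 against 9.47 ± 1.602 TPM. Stat3 and Stat6, which relay IL-10 and IL-4 signals, had log2 fold changes of -0.20 ± 0.23 and -0.04 ± 0.25.

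The 31 tested genes differed in which library was extreme. TREM2+ replicate 1 held the highest value of 12 genes and the lowest of 0, TREM2- replicate 3 the highest of 0 and the lowest of 13, and TREM2+ replicate 3 the lowest of 10. TREM2- replicate 3 and TREM2+ replicate 3 carried the largest shares of the Gm10800 repeat family, 24.6% and 17.5%, which lower the TPM of every other gene in a library. With totals taken without that family Spic no longer passed (log2 fold change 2.38, adjusted p = 0.052), while Maf (1.41, adjusted p = 0.0145) and Nr1h3 (1.83, adjusted p = 0.03) did.

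Genes downstream or upstream of the factors were followed in 7 lists, which share no member with the 32 genes. The counts of these lists stand beside 2.05% called higher and 0.37% called lower over all genes tested. Of 14 LXR targets 4 rose and 0 fell, with a median log2 fold change of 0.48. They were Cd5l, a secreted macrophage protein (366 ± 114 against 43.7 ± 19.9 TPM, SD, n = 3, log2 fold change 3.08 ± 0.35), the cholesterol exporter Abca1 (1.73 ± 0.28), the apolipoprotein Apoe (1.88 ± 0.38) and Apoc1 (1.32 ± 0.25). Smpdl3a, a phosphodiesterase that LXR induces, had the lowest change of the list at -0.94, without passing. Of 11 PPAR gamma targets 5 rose, with a median of 1.04: the lipid chaperones Fabp4 (2.05 ± 0.35) and Fabp5 (2.03 ± 0.41), the fatty acid transporter Cd36 (2.03 ± 0.31), the droplet protein Hilpda (1.51 ± 0.28) and the lipase Lpl (1.56 ± 0.32). Lpl fell outside the naming rule and is given because the count is small. With 1 library omitted in turn, Cd5l was called in 6 of 6 fits, Abca1, Fabp4 and Cd36 in 5, Fabp5 in 3, and Apoe, Apoc1, Hilpda and Lpl in 1 each. Apoe, Fabp5 and Lpl are also on the list of lipid-associated macrophage markers. Kupffer cell and endothelial cell markers rose in the same libraries, and the cell source of the LXR and PPAR gamma targets was not tested.

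Genes of iron and haem handling that SPIC or haem control rose in 5 of 11, with the highest median of the 7 lists at 1.31. The iron exporter Slc40a1 went from 31.7 ± 7.77 to 156 ± 28.8 TPM (SD, n = 3), the adhesion protein Vcam1 from 13.1 ± 6.24 to 74.4 ± 9.39 TPM, the biliverdin reductase Blvrb from 32.2 ± 5.48 to 110 ± 23.4 TPM and the haem oxygenase Hmox1 from 165 ± 12.5 to 764 ± 319 TPM. Ferritin heavy chain Fth1, outside the naming rule, had a log2 fold change of 1.51 ± 0.23, uncertain where reads of ferritin pseudogenes were split. Slc40a1, Vcam1 and Blvrb were called in all of those 6 fits, Hmox1 in 5 and Fth1 in 4. Slc40a1 and Cd5l are also on the list of Kupffer cell markers, and Vcam1 is also carried by endothelial cells. The haem-sensing repressor Bach1 had a log2 fold change of -0.23, the lowest of the list.

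BMP and TGF beta genes rose in 4 of 15, with a median of 0.27. The co-receptor Eng (10.2 ± 1.67 against 1.46 ± 0.46 TPM, SD, n = 3) and the ligand Bmp2 (6.08 ± 1.68 against 0.52 ± 0.18 TPM) were called in all of those 6 fits, the ligand Gdf15 (12.5 ± 2.80 against 2.46 ± 1.01 TPM) in 5 and the receptor Acvrl1 (30.3 ± 1.76 against 12.2 ± 3.15 TPM) in 1. Eng is on the list of endothelial cell markers, and Bmp2 and Acvrl1 are known from sinusoidal endothelium; their source was not tested. Notch pathway genes rose in 1 of 14, with a median of -0.07. That gene was the ligand Dll4 (2.30 ± 0.21 against 0.45 ± 0.19 TPM), outside the naming rule and called in 0 of the 6 fits. The cell source of Dll4 was not tested either. Among other genes of that list, Dtx4 had a log2 fold change of 0.64 ± 0.27, Adam10 of 0.21 and Rfng of -0.56.

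Lysosome and autophagy targets of MiT/TFE proteins rose in 4 of 35 with a median of 0.30, and 14 of the 35 did not overlap between groups, each with TREM2+ above. Of all genes tested 2.05% were called higher, 9.07% lay above without overlap and 7.62% below. The proton pump subunit Atp6v0d2 went from 15.0 ± 3.32 to 54.2 ± 6.07 TPM (SD, n = 3), the protease Ctsb from 929.5 ± 98.2 to 2338 ± 77.8 TPM, Ctsd from 501 ± 89.6 to 1222 ± 161 TPM, and the galactosidase Gla from 30.4 ± 8.25 to 69.9 ± 7.26 TPM. They stayed called in 6, 4, 3 and 1 of the 6 fits. The 52 other members of the same factor families had a median of -0.07 against -0.09 over all genes, and 0 fell by limma's adjusted p (5 lay lower at an unadjusted p under 0.05). Mxd1, a repressor that competes with MYC for MAX, did not pass (149 ± 23.2 against 75.0 ± 14.1 TPM, adjusted p = 0.0653), and the small MAF gene Maff was at 6.76 ± 1.09 against 3.25 ± 0.65 TPM (adjusted p = 0.125).

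**Figure D5:**
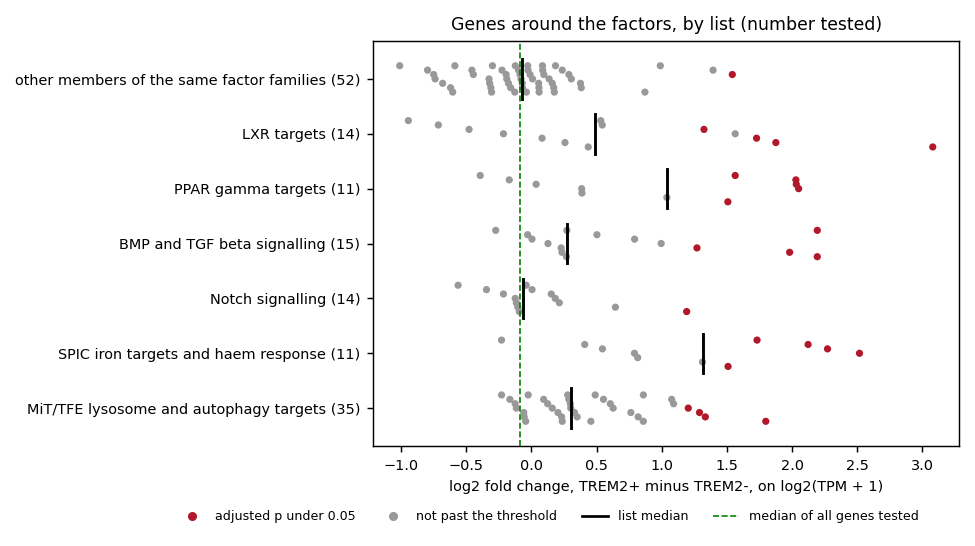
Log2 fold change of each tested gene in the 7 lists around the factors, with red points past the adjusted threshold, black bars for list medians and a dashed line at the median of all genes tested (-0.09). Medians run from -0.07 for the other family members and the Notch genes to 1.31 for iron and haem genes.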

How the data were processed

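Messenger RNA libraries of 3 TREM2+ and 3 TREM2- macrophage samples were grouped by their titles. The submitters' processing notes list STAR 2.7.10a, Subread, featureCounts 2.0.3 and mm10; the annotation, strand setting and formula were not found in the sources used. The authors deposited a length-scaled signal under the name TPM. Its 6 columns sum to 1000000 jointly, so each was rescaled to 1000000, a step the planned design did not foresee. Multiplying the deposited signal by GENCODE M21 exon lengths gave whole reads (within 0.01 read in all libraries) for 98.7% of 36673 matched rows above 0, though not for Zeb2 and Rxra. Reads served to judge precision and for limma's voom; they carry no molecular identifiers.

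Rows reaching 1 TPM in at least 3 libraries entered limma 3.58.1 (R 4.3.3), fitted to log2(TPM + 1) with an intensity trend. Its p-values are two-sided and Benjamini-Hochberg adjusted, with a threshold of 0.05; the fit was tested on simulated data. All 32 factor genes are described; of each other list up to 4 genes with the smallest p and at least 5 TPM in the higher group are named, apart from some that are not reported here. Members, lists and rules were chosen with earlier results of these data known. Promoter windows are RefSeq's and gene models GENCODE M21. Alternatives covered pseudocount, filter, scaling, repeat family, voom, replicate block, trend, weights and omitted libraries.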

Additional observations from a re-analysis of the deposited data

How the results depend on the processing

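The number of factor genes higher in TREM2+ (3) was 0 with no filter, 1 with the replicate block, 11 with library weights, 0 without both libraries numbered 3, and 0 to 3 with 1 library omitted. Over all genes the 282 higher became 95 with no filter, 443 with voom, 976 with weights and 0 without both libraries numbered 3 (109 to 310 with 1 library omitted). The 51 lower became 31 with a pseudocount of 0.1, 3 with no filter, 80 with median-of-ratios scaling, 121 with quantile normalization, 92 with the deposited values, 101 without the repeat family, 171 with voom, 389 with weights and 0 without both libraries numbered 3 (12 to 94 with 1 library omitted). Fewer libraries, and with no filter more genes tested, enter those fits; other causes were not tested.

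Nothing states whether replicate numbers pair the samples. Deviations of same-numbered libraries correlated at 0.19, -0.03 and 0.22. For replicates 1 and 3 this was the best match, while TREM2+ replicate 2 correlated best with TREM2- replicate 3 (0.13). In both groups recovered reads fell and the share of the Gm10800 repeats rose from replicate 1 to replicate 3. Whether libraries of the same number share an animal or a batch was not tested. With the replicate block 116 genes were higher and 10 lower, and Nr1h3 was called (adjusted p = 0.0428) but not Spic (0.0672) or Maf (0.0554). The block left 0 Kupffer lineage factors, 0 other family members, 1 LXR target, 2 PPAR gamma targets and 0 Notch genes higher.

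By list, the 2 Kupffer lineage calls became 0 with no filter, 1 with deposited values, 1 without the repeat family and 4 with weights (0 to 2 with 1 library omitted). The 1 nuclear receptor became 0 with no filter and 3 with weights (0 to 1). Weights also called 1 MiT/TFE and 1 myeloid lineage factor, and 2 signal-dependent factors, of which median-of-ratios and quantile scaling each called 1. Of the other family members 0 were higher with pseudocount 0.1, no filter, quantile, deposited values and no repeat family, 2 at a TPM of at least 5 or with no trend, 3 with voom and 4 with weights (0 to 1, and 0 to 1 lower). LXR targets gave 1 with no filter and 8 with weights (2 to 3), and 1 lower with voom and with weights, which moved the median to 0.83. PPAR gamma targets gave 0 with no filter and 3 with median-of-ratios, deposited values and no repeat family (0 to 5). BMP and TGF beta genes gave 2 with no filter (2 to 4), with a median of 0.44 at pseudocount 0.1, 0.47 with median-of-ratios, 0.60 with weights and 0.45 without both libraries numbered 3 (0.22 to 0.52). The Notch call was 0 with pseudocount 0.1, no filter, a TPM of at least 5 and deposited values, and 2 with weights (0 to 0). Iron and haem genes gave 3 with no filter and 8 with weights (3 to 6). Lysosome genes gave 1 with no filter and with deposited values, 7 with median-of-ratios and quantile, 8 with voom and 10 with weights (1 to 5). Without both libraries numbered 3 each of these lists gave 0.

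Signs turned for genes near 0, in log2 fold change: with median-of-ratios scaling Nr1h2 0.065, Klf2 0.043, Runx1 0.039 and Stat6 0.046, with quantile normalization Nr1h2 0.032 and Runx1 0.0104, with library weights Nr1h2 0.11, Klf2 0.20, Runx1 0.095 and Stat6 0.047, and without both libraries numbered 3 Klf2 0.029 and Runx1 0.10. With 1 library omitted the values ran for Tfeb from -0.34 to 0.017, for Nr1h2 from -0.24 to 0.19, for Klf2 from -0.14 to 0.11, for Spi1 from -0.26 to 0.028, for Runx1 from -0.15 to 0.14, for Runx3 from -0.14 to 0.39, for Id2 from -0.0403 to 0.36, for Irf5 from -0.39 to 0.0062, for Stat6 from -0.25 to 0.17. Low read numbers limit Bhlhe41 and Mitf.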

Other observations

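Markers of further cell types were read in the same libraries. Their counts stand beside 2.05% called higher and 0.37% called lower over all genes tested. Lipid-associated macrophage markers were higher in 5 of 10 and lower in 0, with sums of 19052 to 27054 TPM in TREM2+ and 6916 to 9821 TPM in TREM2-. Apoe gave 11914 to 20776 TPM and 2527 to 6259 TPM of those sums. It was called in 1 of the 6 fits with 1 library omitted. The list also holds Trem2, the label gene, which did not pass. Basophil or mast cell markers were lower in 3 of 6, with sums of 17.0 to 26.7 TPM against 117 to 214 TPM. Of 7 dendritic cell markers 1, Ccr7, was lower, with sums of 54.9 to 71.6 TPM against 93.7 to 252 TPM. Of 7 hepatocyte markers 1, Trf, was higher (1020 to 1308 TPM against 482 to 556 TPM). The hepatocyte sums were 1107 to 1399 TPM against 531 to 870 TPM, of which Trf gave most in every library. Apoa1, the next most abundant of that list, overlapped between groups. B or plasma cell markers gave 0 calls in 7 by limma (0 also by unadjusted p under 0.05), with sums of 273 to 375 TPM against 170 to 961 TPM.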
